A study of Mus musculus with 2 samples.

Results

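The genes described here are 42 NF-kB target, AP-1 and immediate early genes, taken by name from a list out of the 32285 genes of the 2 single-cell matrices. The names follow what the genes are known for and not a cutoff on a measured value. All 42 were found in both matrices, and 30 of them passed a floor of 10 CPM (UMIs, the counted molecules, scaled to a common library total) as the mean of the 2 libraries, which left 12 to be given by their UMI counts alone.

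The cells were bone marrow Lin-Sca-1+c-Kit+ (LSK) cells, the sorted fraction in which stem and early progenitor cells lie, from BCR-ABL+ mice and from Mir142 KO BCR-ABL+ mice, both 8 to 10 weeks old. Both groups therefore carried BCR-ABL, here a tet-off transgene driven by the SCL promoter (SCLtTA/BCR-ABL) on a B6 background. In both, by the paper's account, BCR-ABL was switched on by withdrawing tetracycline before the cells were sorted. The miR-142 deletion was germline, so it was carried by every cell of the animal and not by the LSK cells alone. Each group was 1 library, called WT and KO below for the labels miR-142 WT CML and KO, and the number of mice behind a library was not given in the sources used here. Genotype and library therefore cannot be told apart, no test between groups was possible, and every interval below is a 95% interval for counting error only.

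NF-kB is a family of transcription factors held in the cytoplasm by inhibitors such as IκBα until a receptor for a cytokine or a microbial product is engaged. The immediate early genes, among them the AP-1 factors of the Fos and Jun families, are transcribed within minutes of a stimulus without new protein synthesis, through kinases that act on factors bound at their promoters. Both programmes switch on their own brakes (IκBα, A20, dual specificity phosphatases, SOCS3 and the mRNA-decay factor tristetraprolin), and both also respond to the handling and dissociation of tissue. In blood formation they accompany stem cell activation, inflammation and myeloid output.

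Fos, Jun, Btg2, Dusp2 and Nfkbia are shown by the 250 bases before their RefSeq start (GRCm38.p6), chosen after their values were seen because each stands for a role described below and because no exon of the GENCODE annotation overlaps these bases. Fos (chr12:85473640-85473889, plus strand), Jun (chr4:95052223-95052472, minus strand), Btg2 (chr1:134079156-134079405, minus strand), Dusp2 (chr2:127335909-127336158, plus strand) and Nfkbia (chr12:55492648-55492897, minus strand) are each written 5′ to 3′ on the strand of the gene. Capitals mark the matches to 6 searched motifs.
Fos: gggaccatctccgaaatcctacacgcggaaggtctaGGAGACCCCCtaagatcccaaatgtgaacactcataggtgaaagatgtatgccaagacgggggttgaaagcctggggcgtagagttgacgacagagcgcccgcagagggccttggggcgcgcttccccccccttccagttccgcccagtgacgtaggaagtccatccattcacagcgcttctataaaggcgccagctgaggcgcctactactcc
Jun: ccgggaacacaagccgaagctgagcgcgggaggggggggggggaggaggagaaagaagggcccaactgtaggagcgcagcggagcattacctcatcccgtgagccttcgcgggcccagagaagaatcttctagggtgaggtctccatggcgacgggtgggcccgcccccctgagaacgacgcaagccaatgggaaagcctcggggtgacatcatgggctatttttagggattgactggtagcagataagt
Btg2: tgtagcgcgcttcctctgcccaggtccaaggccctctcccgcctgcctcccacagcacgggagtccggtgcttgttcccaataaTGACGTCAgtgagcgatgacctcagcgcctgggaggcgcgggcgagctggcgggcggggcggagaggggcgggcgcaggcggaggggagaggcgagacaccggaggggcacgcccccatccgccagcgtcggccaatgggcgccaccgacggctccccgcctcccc
Dusp2: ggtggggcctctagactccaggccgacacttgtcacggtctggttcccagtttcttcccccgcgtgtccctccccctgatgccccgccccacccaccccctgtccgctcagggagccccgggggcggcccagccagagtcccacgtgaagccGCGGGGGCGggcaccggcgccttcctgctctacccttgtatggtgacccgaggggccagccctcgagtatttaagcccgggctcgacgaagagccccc
Nfkbia: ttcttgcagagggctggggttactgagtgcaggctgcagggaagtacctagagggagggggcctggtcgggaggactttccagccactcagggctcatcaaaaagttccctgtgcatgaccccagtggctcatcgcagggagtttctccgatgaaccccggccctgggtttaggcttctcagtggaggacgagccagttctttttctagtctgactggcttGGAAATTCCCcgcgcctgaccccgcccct

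The matches were the NF-kB motif in Fos and Nfkbia, a cyclic AMP response element (CRE, TGACGTCA) in Btg2 and an EGR motif (GCGGGGGCG) in Dusp2, while the Jun window held no match. RefSeq gave at least 1 such window for 33 of the 42 members. A member counted once if any of its windows matched, while the percentages below are of single windows, 32851 for 27025 gene symbols. The 2 are thus unlike measures, since a gene with several windows has more places for a match. The NF-kB motif lay in 11 of these 33 and in 7.25% of all 32851 windows of the same length. The EGR motif lay in 8 members and 2.57% of all windows, the STAT motif (TTCNNNGAA) in 4 members and 7.02%, the AP-1 motif (TGANTCA) in 3 members and 6.75%, the CArG box bound by serum response factor in 3 members and 1.47%, and the CRE in 2 members and 1.55%. Both strands were searched, and a match is a description of letters, not a bound site.

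Cells were barcodes with at least 8000 UMIs and under 10% mitochondrial UMIs, 5363 in the WT and 5458 in the KO library, with a median of 19440 and 24180 UMIs per cell. Mir142hg, the host transcript of miR-142, had 1260 UMIs in the WT and 20 in the KO cells. Of the sort markers, Ly6a (Sca-1) was seen in 74% of WT and 78.2% of KO cells and Kit in 77.8% and 74.1%. The summed level of 4 mature neutrophil markers was 23.2 (WT) and 143 CPM (KO), that of 4 B cell markers 39.8 and 34.7 CPM, of 3 endothelial markers 47.1 and 30.6 CPM, and T cell, macrophage and stromal markers summed to at most 3.26 CPM. Each of these markers had UMIs, and their part in the results below was not tested. The libraries shared 4 barcode sequences. UMIs were read at transcript ends and not divided by length, so levels are compared between cells of one gene and not between genes. An automatic doublet caller marked 0.0746% of WT and 0.0733% of KO cells, too few to have worked, and no cell was removed as a doublet. Marker genes placed cells in 11 groups, of which 8 held at least 50 cells in both libraries and carried the comparison (HSC-like, lymphoid-primed-like, cycling, megakaryocyte-like, basophil/mast-like, granule-high monocyte-leaning, granule-high neutrophil-leaning and ungated).

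The 2 libraries differed first in which cells they held. HSC-like cells were 23.2% of the WT library (1243 cells) and 7.13% of the KO library (389 cells), while granule-high cells, those rich in Elane, Mpo, Prtn3 and Ctsg, were 19.8% and 56.9%. These are the groups at the opposite ends of the members' expression. Summed over the 42 members, the level in HSC-like cells was 10090 (WT) and 12300 CPM (KO), against 1952 and 2531 CPM in granule-high monocyte-leaning cells and 2115 and 2167 CPM in granule-high neutrophil-leaning cells. Over all cells the sum was 4434 (WT) and 3532 CPM (KO). A lower total in the KO library thus stood beside a higher one in each of the 8 groups. Of the 30 members past the floor, 16 in WT and 20 in KO were highest in HSC-like cells, and 23 had the same highest group in both libraries.

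Each member was therefore read in 2 ways. The first summed all cells of a library. The second gave both libraries the same weights over the 8 groups (the mean of their shares of UMIs), and is called one composition below. Over all cells, 7 of the 30 members were higher and 23 lower in KO, with a median log2 ratio of -0.18 against -0.08 over the 7483 genes past the same floor. No member was at least 1.5-fold higher, where 2.77% of all genes were, and 5 were at least 1.5-fold lower, where 4.81% of all genes were. Without the basophil/mast, innate lymphoid and antibody-secreting gates, 3 of 29 members were higher and 26 lower, with a median of -0.29 against -0.09. The members' total was also lower with each cell thinned to 8000 UMIs, at a mean of 49.97 (WT) and 42.46 (KO) UMIs per cell. The count of lower members, however, depended on the weighting of cells. With cells thinned to 8000 UMIs, 14 members were higher and 18 lower with a median of -0.07, as for all genes, and the mean of per-cell CPM gave the same counts and medians. At one composition 24 members were higher and 6 lower, with a median of 0.21 against -0.05. Here 3 members (Fos at 1.51-fold, Rgs1 and Socs3) were at least 1.5-fold higher against 1.67% of all genes, and 3 (Ltb, Ccl3 and Ccl4) at least 1.5-fold lower against 1.31%. The sign turned, beyond 0.1 log2 on each side, in 11 members (Btg2, Dusp1, Dusp2, Egr1, Fosb, Ier2, Ier3, Ier5, Jund, Rgs2 and Zfp36).

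**Figure D1:**
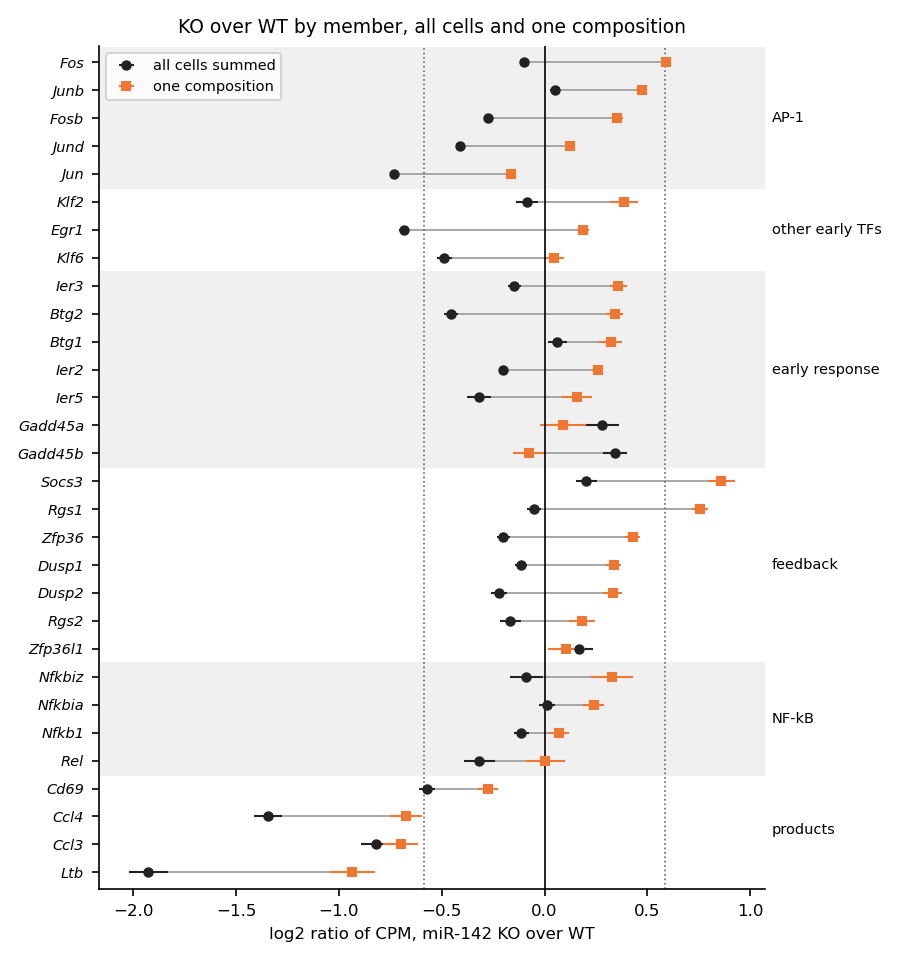
log2 ratio of CPM, KO over WT, for the 30 members past the floor, grouped by role, over all cells (black circles) and at one composition (orange squares). Bars are 95% counting intervals and dotted lines mark 1.5-fold. Most black circles lie left of 0 and most orange squares right of it, except Jun, Gadd45b and the 4 secreted and surface products.

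The second reading depended on how finely cells were divided and on depth. Within groups the members' summed level mostly fell as the UMIs per cell rose, and the median UMIs per cell was lower in KO in each of the 8. In HSC-like cells the sum was 11870 (WT) and 13440 CPM (KO) in cells of 8000 to 12000 UMIs, and 7297 and 8649 CPM in cells of 20000 to 40000. In bins with at least 10 cells in both libraries, the KO value was the higher throughout in HSC-like and lymphoid-primed-like cells, and the lower throughout in megakaryocyte-like cells. The remaining groups were mixed, with cycling cells of 12000 to 20000 UMIs at 6133 and 5664 CPM and granule-high neutrophil-leaning cells of 20000 to 40000 UMIs at 2897 and 2442 CPM. When each group was divided at 12000, 20000 and 40000 UMIs, a split added after seeing the data, 20 of 30 members were higher in KO with a median of 0.09. Over 12 Leiden clusters, computed without the members, 17 of 30 were higher with a median of 0.05 and no member was 1.5-fold higher. Under all 23 alternatives of this reading Btg1, Dusp1, Dusp2, Fos, Fosb, Ier2, Ier3, Junb, Klf2, Nfkbia, Nfkbiz, Rgs1, Socs3 and Zfp36 were above 0, and Ccl4, Cd69, Jun and Ltb below 0.

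**Figure D2:**
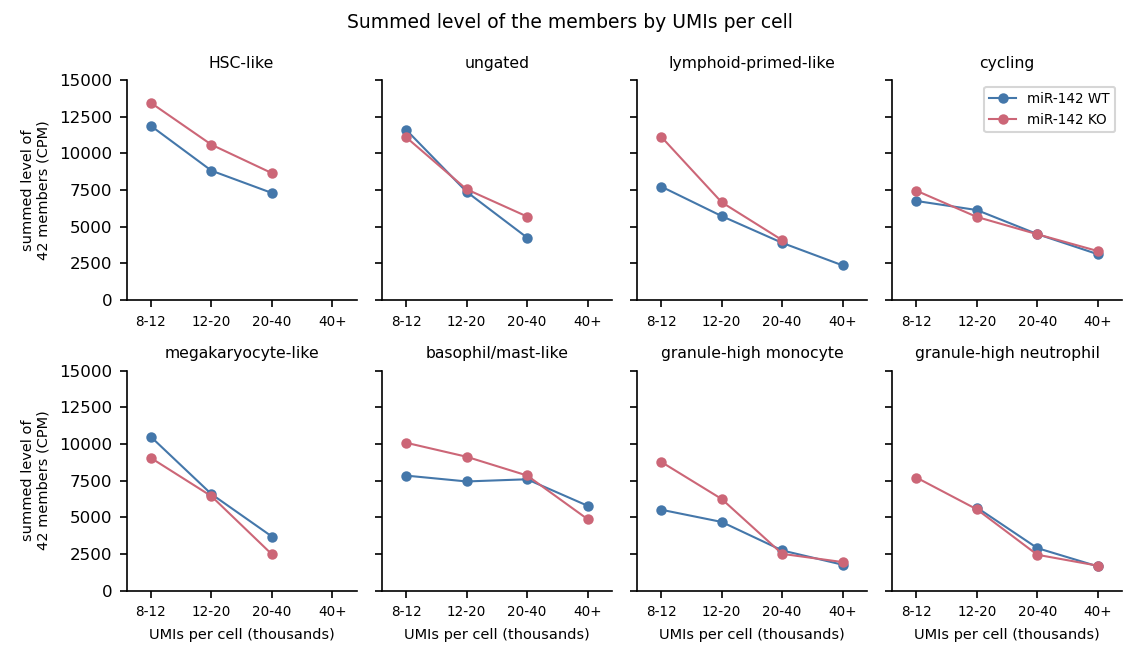
Summed level of the 42 members (CPM, linear axis from 0) by UMIs per cell, in the 8 cell groups, for WT (blue) and KO (red), with bins of under 10 cells left out. The level falls from left to right in nearly every line, and the KO line runs above the WT line in HSC-like cells but not in megakaryocyte-like cells.

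The AP-1 genes, which encode the subunits of a dimeric factor, did not move as one. Jun was at 803 (WT) and 484 CPM (KO) over all cells (log2 ratio -0.73, -0.74 to -0.72), a 1.66-fold lower level in KO. At one composition the values were 666 and 594 CPM (-0.16), so Jun was among the 5 members lower in both readings. Its level was 1997 and 1737 CPM in HSC-like cells and 295 and 340 CPM in granule-high monocyte-leaning cells, and it was lower in KO in 6 of 8 groups. The other Jun genes differed from it. Jund, which often opposes proliferation, was at 761 and 573 CPM over all cells (-0.41) and at 628 and 685 CPM at one composition (0.13). It was higher in KO in 4 and lower in 4 of 8 groups, and its ratio at one composition lay between -0.20 and 0.18 over 23 alternatives, below 0 in 3 of them. Junb, a Jun family member that restrains myeloid growth, was at 251 and 260 CPM over all cells (0.05) and at 218 and 303 CPM at one composition (0.47), and was higher in KO in 8 of 8 groups.

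Fos and Fosb, which pair with Jun proteins, were higher in KO in most groups. Fos was at 419 (WT) and 391 CPM (KO) over all cells (-0.10, -0.12 to -0.08). At one composition it was at 343 and 517 CPM (0.59, 0.57 to 0.61), and it was higher in KO in 8 of 8 groups. The gap was widest in lymphoid-primed-like cells, at 316 and 799 CPM (log2 ratio 1.34), and narrowest in granule-high neutrophil-leaning cells, at 186 and 213 CPM (0.20). The gap in lymphoid-primed-like cells varied with depth. Fos there was at 529 and 1526 CPM in cells of 8000 to 12000 UMIs, 472 and 811 CPM at 12000 to 20000, and 295 and 452 CPM at 20000 to 40000. HSC-like cells held 1039 (WT) and 1719 CPM (KO). These group values were not matched for depth. In cells of 20000 to 40000 UMIs, Fos was at 306 (WT) and 298 CPM (KO) in granule-high monocyte-leaning cells. It was at 204 and 113 CPM in megakaryocyte-like cells and at 259 and 262 CPM in granule-high neutrophil-leaning cells. In the other groups Fos was higher in KO at this depth. Fosb was at 239 and 198 CPM over all cells (-0.27) and at 202 and 258 CPM at one composition (0.35), with 164 and 373 CPM in lymphoid-primed-like cells. It was higher in KO in 7 of 8 groups and lower in granule-high neutrophil-leaning cells, at 120 and 112 CPM (-0.10, -0.19 to -0.02). Fosl2, the Fra-2 gene, had 873 WT and 889 KO UMIs, and the stress factor Atf3 had 225 and 271, both under the floor.

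**Figure D3:**
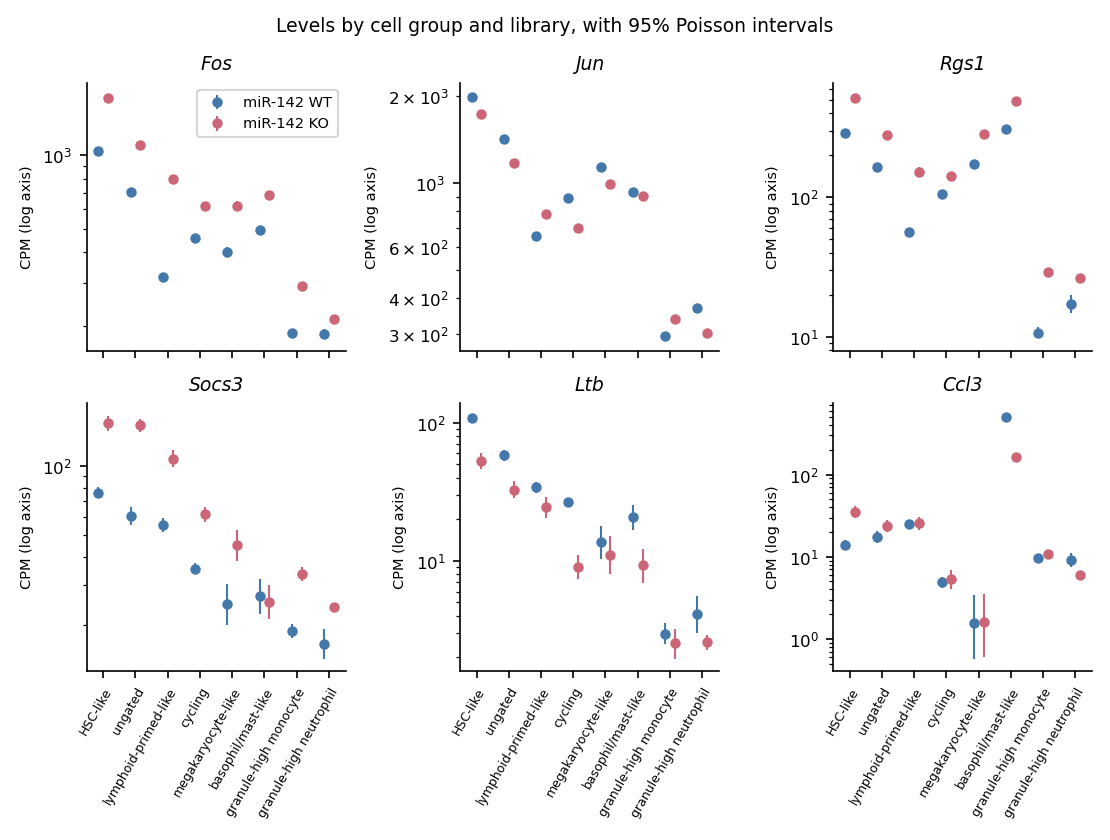
Levels (CPM, log axis) of Fos, Jun, Rgs1, Socs3, Ltb and Ccl3 in the 8 cell groups, WT in blue and KO in red, with 95% Poisson intervals. Fos and Rgs1 are higher in KO in every group, Socs3 in all but basophil/mast-like cells, Ltb is lower in KO in every group, and Ccl3 differs most in basophil/mast-like cells.

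Of the 3 other immediate early transcription factors past the floor, Egr1, a zinc finger factor linked to the quiescence of stem cells, had the ratio farthest from 0 over all cells, and Klf2 at one composition. Egr1 was at 235 (WT) and 146 CPM (KO) over all cells (-0.69, -0.71 to -0.66), 1.61-fold lower in KO. At one composition the values turned to 184 and 209 CPM (0.19, 0.16 to 0.22). HSC-like cells held 597 and 702 CPM and granule-high monocyte-leaning cells 53.2 and 95.2 CPM, the group with the widest gap (0.84). Divided by UMIs per cell, the log2 ratio was -0.04, and with Leiden clusters it was -0.21, so its direction at one composition depends on the division of cells. Klf2, which restrains inflammatory activation, was at 37.3 and 35.2 CPM over all cells and at 31.9 and 41.7 CPM at one composition (0.39), with 61.4 and 106 CPM in HSC-like cells. Klf6 was at 97.7 and 69.6 CPM (-0.49) and at 83 and 85.8 CPM (0.05). Under the floor stood Nr4a1 with 1081 WT and 926 KO UMIs, Nr4a2 with 330 and 343, Egr3 with 279 and 372 and Egr2 with 139 and 226.

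Of the 7 early response and growth arrest genes, Ier2, Ier3, Ier5 and Btg2 were lower over all cells and higher at one composition, while Btg1 and Gadd45a were higher in both readings. Ier2, a nuclear early response gene, was at 258 (WT) and 224 CPM (KO) over all cells (-0.20) and at 223 and 267 CPM at one composition (0.26). Btg2, an antiproliferative gene, was at 107 and 78.3 CPM over all cells (-0.46) and at 84.8 and 107 CPM at one composition (0.34), with 275 and 391 CPM in HSC-like cells and 35.9 and 52.5 CPM in granule-high monocyte-leaning cells. Ier3 was at 107 and 96.4 CPM (-0.15) and at 92.4 and 119 CPM (0.36). Ier5 was at 36.7 and 29.4 CPM (-0.32) and at 31.7 and 35.3 CPM (0.16), and Btg1 at 50.5 and 52.7 CPM (0.06) and at 44.4 and 55.5 CPM (0.32). The all-cell difference of Btg1 was 2.19 CPM, to which the changed share of innate lymphoid-like cells added 5.35 CPM. Its all-cell ratio was above 0 in 13 alternatives and below 0 in 1, at -0.20. The stress sensors Gadd45a and Gadd45b were the 2 members with a positive composition part. Gadd45b was at 28.5 and 36.1 CPM over all cells (0.34) but at 32.9 and 31.2 CPM at one composition (-0.07), with 43.8 CPM in granule-high neutrophil-leaning cells of both libraries. Gadd45a was at 13.7 and 16.6 CPM (0.28) and at 15.4 and 16.4 CPM (0.09).

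The feedback regulators held the 2 members past the floor with the highest ratios at one composition. Socs3, the inhibitor of cytokine receptor and STAT3 signalling, was at 36 (WT) and 41.5 CPM (KO) over all cells (0.20, 0.15 to 0.26). At one composition it was at 29.9 and 54.3 CPM (0.86, 0.79 to 0.92), 1.81-fold higher in KO. It was higher in 7 of 8 groups, from 76.4 to 154 CPM in HSC-like cells and from 60.5 to 151 CPM in ungated cells, but at 26.9 and 25.4 CPM in basophil/mast-like cells. Over its 23 alternatives at one composition the log2 ratio stayed between 0.53 and 0.93. Rgs1, which damps signalling of chemokine receptors, was at 95.5 and 92.3 CPM over all cells (-0.05) and at 73.6 and 125 CPM at one composition (0.76, 0.72 to 0.80), 1.69-fold higher in KO. Its levels ran from 306 and 487 CPM in basophil/mast-like cells and 289 and 518 CPM in HSC-like cells down to 10.6 and 28.9 CPM in granule-high monocyte-leaning cells, and KO was higher in 8 of 8. With Leiden clusters in place of gates its ratio was 0.27, and with cells divided by depth 0.56.

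The dual specificity phosphatases, which switch off MAP kinases, and the mRNA-decay gene Zfp36 (tristetraprolin) were also higher inside groups. Dusp1 was at 137 (WT) and 127 CPM (KO) over all cells (-0.12) and at 118 and 148 CPM at one composition (0.34), higher in KO in 8 of 8 groups. Dusp2 was at 84.7 and 72.7 CPM (-0.22) and at 73.1 and 92 CPM (0.33). Zfp36 was at 129 and 113 CPM (-0.20) and at 105 and 142 CPM (0.43), again higher in 8 of 8. For these genes the all-cell value was the opposite of the value in each group, or in 7 of 8 groups for Dusp2. Rgs2 was at 46.7 and 41.6 CPM (-0.17) and at 43.1 and 48.9 CPM (0.18), and Zfp36l1 at 24.1 and 27.1 CPM (0.17) and at 21.1 and 22.7 CPM (0.11). Over 23 alternatives at one composition, Rgs2 was below 0 in 1 (at -0.07) and Zfp36l1 in 2 (lowest -0.06). The all-cell difference of Zfp36l1 was 2.997 CPM, to which the changed share of innate lymphoid-like cells added 5.406 CPM. Its all-cell ratio was above 0 in 13 alternatives and below 0 in 1, at -0.305. Dusp5 fell just under the floor at a mean of 9.95 CPM, with 1441 WT and 1501 KO UMIs. Just inside the floor stood Gadd45a at a mean of 15.2 CPM.

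The NF-kB subunits and inhibitors had the medians nearest to 0 of the 6 roles, -0.10 over all cells and 0.15 at one composition. Nfkb1, which encodes p105 and p50, was at 77.5 (WT) and 71.7 CPM (KO) over all cells (-0.11) and at 72.3 and 75.9 CPM at one composition (0.07, 0.02 to 0.12). Nfkbia, which encodes IκBα and is a standard readout of NF-kB activity, was at 69.8 and 70.3 CPM (0.01, -0.03 to 0.05) and at 61.3 and 72.3 CPM (0.24). It was higher in 6 of 8 groups and lower in cycling (-0.03) and megakaryocyte-like cells, the latter at 98.6 and 68.3 CPM. Nfkbiz, the IκBζ gene, was at 17.5 and 16.4 CPM (-0.09) and at 14.3 and 18 CPM (0.33), with 33.2 and 85.2 CPM in basophil/mast-like cells. Rel was at 21.9 and 17.6 CPM (-0.32) and at 20.3 and 20.4 CPM (0.00, -0.09 to 0.10). Under the floor stood Nfkb2 with 1233 WT and 1120 KO UMIs, Relb with 844 and 619, and Tnfaip3, the A20 gene, with 579 and 982. In basophil/mast-like cells Tnfaip3 was at 18.4 and 52.4 CPM.

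The secreted and surface products formed the exception. None of the 4 past the floor was higher in KO in either reading. Ltb, the lymphotoxin β gene, was at 28.6 (WT) and 7.53 CPM (KO) over all cells (-1.93, -2.02 to -1.83), 3.80-fold lower. At one composition it was at 20.5 and 10.7 CPM (-0.93, -1.04 to -0.82), 1.91-fold lower. It was lower in KO in each of the 6 groups where it passed the floor, from 107 to 53.3 CPM in HSC-like cells and from 26.6 to 9.06 CPM in cycling cells. Its neighbour on chromosome 17, Tnf, lies 3060 bases away and had 1215 WT and 860 KO UMIs, under the floor. Tnf was at 15.3 and 7.37 CPM in lymphoid-primed-like cells and at 25.1 and 27.1 CPM in basophil/mast-like cells. Cd69, an activation antigen, was at 87.4 and 58.9 CPM over all cells (-0.57) and at 79.1 and 65.4 CPM at one composition (-0.27).

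The chemokines Ccl3 and Ccl4, neighbours on chromosome 11 with 13228 bases between them, differed most in basophil/mast-like cells. Ccl3 was at 26.8 (WT) and 15.2 CPM (KO) over all cells (-0.82) and at 27 and 16.6 CPM at one composition (-0.70). In basophil/mast-like cells it was at 503 and 164 CPM (log2 ratio -1.62), whereas its ratio was above 0 in the other 4 groups where it passed the floor. HSC-like cells held 13.9 and 35 CPM (1.33) and ungated cells 17.4 and 23.6 CPM (0.44). Granule-high monocyte-leaning cells held 9.53 and 10.9 CPM (0.19, -0.03 to 0.41). Lymphoid-primed-like cells held 25.3 and 25.7 CPM (0.02, -0.28 to 0.32), so the last 2 intervals include 0. Barcodes of 10 to 100 UMIs, which hold mostly free RNA, carried Ccl3 at 34.6 and 13.2 CPM. From basophil and mast cell genes counted outside their group, free RNA was estimated at no more than 3.53% of the UMIs of WT and 8.65% of those of KO cells, and with it subtracted 25 of 31 members past the floor were higher at one composition with a median of 0.27. With the basophil/mast-like, innate lymphoid-like and antibody-secreting-like cells left out, the ratio at one composition turned to 0.16. Ccl4 was at 42.1 and 16.6 CPM over all cells (-1.35) and at 36.4 and 22.8 CPM at one composition (-0.67), with 316 and 93.4 CPM in basophil/mast-like cells. Unlike Ccl3 it was lower in 7 of 8 groups, the exception being HSC-like cells with 87.5 and 109 CPM. Divided further after seeing the data, 71 WT and 64 KO basophil-leaning cells held 998 and 190 CPM of Ccl3 and 614 and 209 CPM of Ccl4. The 136 WT and 195 KO mast-leaning cells held 118 and 152 CPM of Ccl3 and 84.6 and 40.8 CPM of Ccl4, so the lower Ccl3 lay in the basophil-leaning cells. Cxcl2, with 529 WT and 289 KO UMIs, was under the floor and stood at 44 and 13.1 CPM in basophil-leaning cells.

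Each all-cell difference was split exactly into a composition part, from the shares of the groups, and a within-group part, from the levels inside them. The composition part was negative in 28 of 30 members and the within-group part positive in 24. The parts had opposite signs in 24 members, and the composition part was the larger in 22. For Fos the composition part was -207 CPM and the within-group part 179 CPM, which left a difference of -27.9 CPM. For Rgs1 the parts were -55.6 and 52.4 CPM, and for Socs3 -18.9 and 24.3 CPM. The 2 parts nearly cancelled in Fos and Rgs1, and the within-group part exceeded the other in Socs3. For Jun both were negative, at -251 and -67.8 CPM. For Ccl3 the composition part was only -1.54 CPM beside a within-group part of -10.1 CPM.

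**Figure D4:**
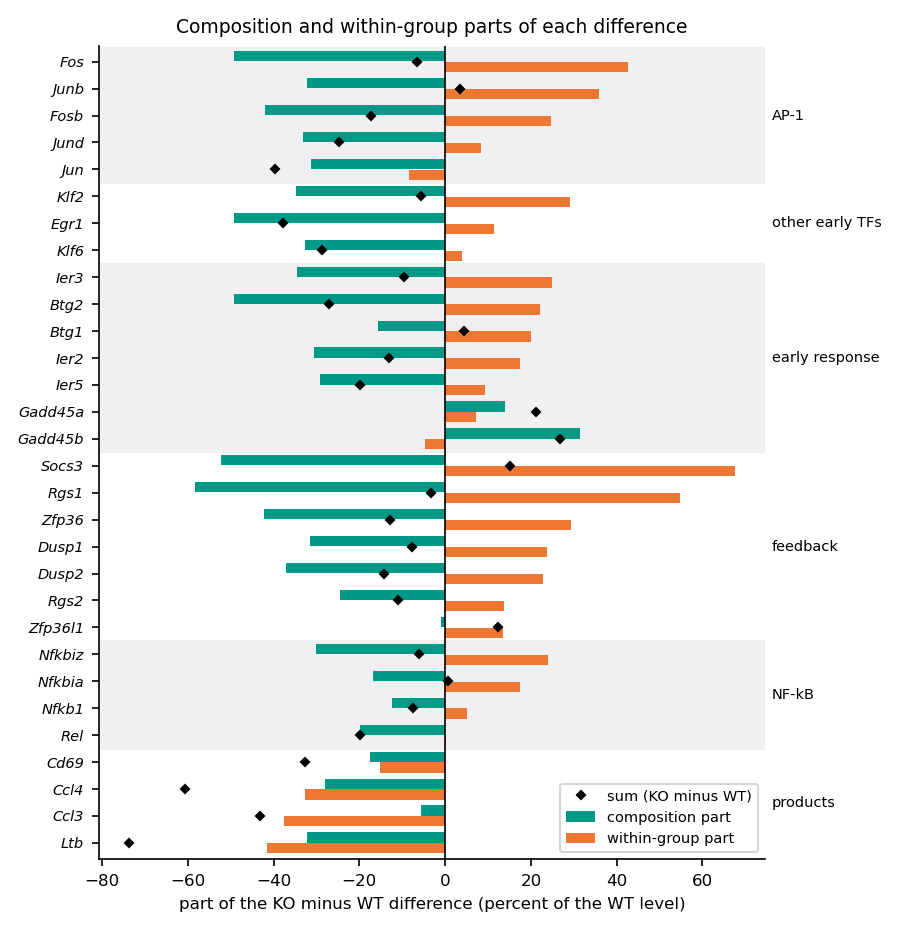
Composition part (green) and within-group part (orange) of the KO minus WT difference for 30 members, as a percentage of the WT level, with their sum as a black diamond. Green bars point left except in Gadd45a and Gadd45b, and orange bars point right except in Jun, Gadd45b and the 4 secreted and surface products.

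Group by group, the lymphoid-primed-like cells had the most members past 1.5-fold. In them 12 of 34 members past the group floor were at least 1.5-fold higher, against 3.41% of all genes. Lower were 2 (Ccl4 and Tnf), against 3.76%. The group floor was 20 UMIs over both libraries and a mean of 10 CPM. A member above 10 CPM in 1 library alone could thus pass and be counted, as Tnf was, at 15.3 (WT) and 7.37 CPM (KO). In HSC-like cells 9 of 33 were higher against 3.21% and 1 (Ltb) lower against 3.46%. In both groups the higher members included Fos, Fosb, Junb, Klf2, Rgs1 and Socs3. In megakaryocyte-like cells 8 of 29 were higher against 2.94% and 1 lower against 4.87%, and in basophil/mast-like cells 8 of 37 were higher against 8.3% and 4 lower against 5.48%. The 4 lower members were Ccl3, Ccl4, Cxcl2 and Ltb. Of these, Cxcl2 (19.2 and 4.09 CPM) and Ltb (20.8 and 9.29 CPM) were above 10 CPM in WT only. In megakaryocyte-like cells the higher Nr4a1 (6.99 and 14.1 CPM) and the lower Ccl4 (13.2 and 8.40 CPM) were above 10 CPM in 1 library only. The counts by group were not matched for UMIs per cell. In megakaryocyte-like cells the members' sum was lower in KO in each bin of UMIs per cell with at least 10 cells in both libraries. In ungated cells 6 of 34 were higher against 3.37% and 2 lower against 2.39%, and in granule-high monocyte-leaning cells 5 of 28 were higher against 2.47% and 0 lower against 1.21%.

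The other 2 groups showed little. In cycling cells 2 of 30 members were at least 1.5-fold higher (Klf2 and Socs3) against 1.68% of all genes and 2 lower (Ccl4 and Ltb) against 2.64%. In granule-high neutrophil-leaning cells, which were 43.6% of the KO library, 1 of 27 (Rgs1) was higher against 1.89% and 1 (Ccl4) lower against 1.35%, with a median log2 ratio of -0.00227. The median UMIs per cell in this group was 41080 (WT) and 37585 (KO). The gap in depth between the libraries differed by group, and its part in the group medians was not tested. HSC-like cells had the highest median ratio, 0.35, with a median of 11500 (WT) and 10050 (KO) UMIs per cell, and granule-high monocyte-leaning cells had nearly the same, 0.35, with 52030 and 33002 UMIs. Lymphoid-primed-like cells stood at 0.33 with 21940 and 15086 UMIs, ungated cells at 0.33 with 14120 and 11907, and basophil/mast-like cells at 0.28 with 17220 and 16337. Megakaryocyte-like cells stood at 0.20 with 17160 and 13634 UMIs, and cycling cells at 0.11 with 22320 and 20436.

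**Figure D5:**
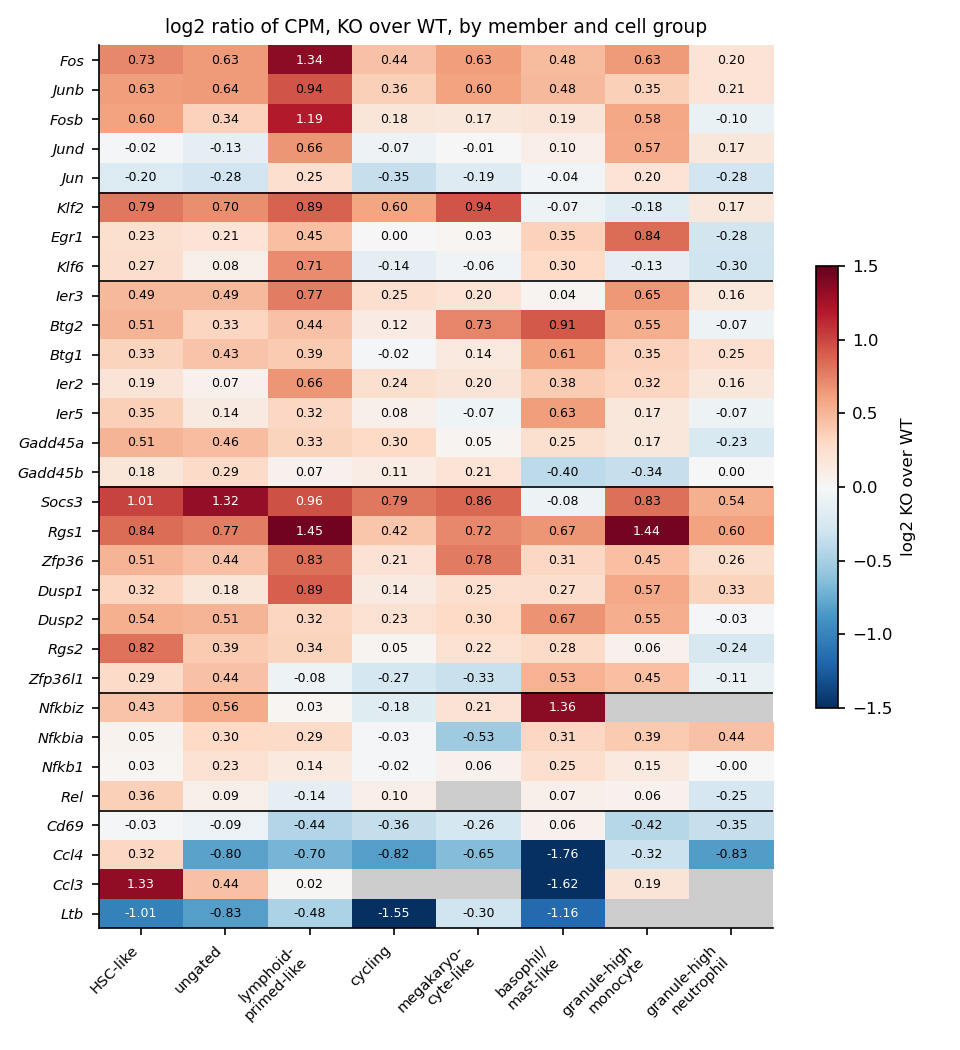
log2 ratio of CPM, KO over WT, for the 30 members (rows, by role) in the 8 cell groups (columns), red for higher and blue for lower in KO. Grey cells did not reach a mean of 10 CPM and a total of 20 UMIs over both libraries in that group. Red fills most of the HSC-like, ungated and lymphoid-primed-like columns, and blue most of the rows of Ccl4, Cd69, Ltb and Jun.

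Each cell was also thinned to 8000 UMIs. The median cell then held 82 UMIs of the members in WT and 101 in KO among HSC-like cells, 30 and 54 among lymphoid-primed-like cells, and 14 in both among granule-high neutrophil-leaning cells. The 5th to 95th percentiles in HSC-like cells ran from 10 to 174 in WT and from 10 to 212 in KO, so the spread between cells of 1 group was far wider than the gap between libraries. Over all cells the median was 37 in WT and 23 in KO.

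Across the thinned cells of a group Fos, Fosb, Jun, Jund and Egr1 rose and fell together, while Nfkb1 did not follow Fos. Spearman correlations were taken in 16 sets of cells, 8 groups in 2 libraries, for the 91 pairs of members seen in at least 20% of cells in each set. Jun with Jund had the highest median, 0.712 (lowest 0.586, highest 0.860), followed by Fos with Jun at 0.670 and Fos with Egr1 at 0.665. The lowest medians were those of Nfkb1 with Cd69 at -0.024, with Ier2 at -0.011 and with Fos at -0.008. The cells of a set shared a library and were thinned to 8000 UMIs, so these values describe the cells and carry no test. Thinning does not make equal the UMIs a cell held before it, and the members' level mostly fell with those inside groups. The part of this shared trend in the correlations was not tested.

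Genes of the surrounding pathways had medians nearer to 0 or below it at one composition. Of 16 genes of the NF-kB machinery past the floor, 4 were higher and 12 lower at one composition (median -0.06), between Bcl3 at 12.4 (WT) and 13.2 CPM (KO) (0.08) and Tnip1, an A20 partner, at 18.9 and 14.6 CPM (-0.37). Tab1 was next to Bcl3 at 0.08, and Tab2 next to Tnip1 at -0.25. Of 9 receptors and adaptors upstream of NF-kB, 5 were higher, led by Tnfrsf1a, a TNF receptor, at 56.5 and 78.4 CPM (0.47) and the interleukin-1 receptor Il1r1 at 18.7 and 23.6 CPM (0.34). Irak4 at -0.10 and Myd88 at -0.06 were the lowest of them. None of these genes passed 1.5-fold in either reading.

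Of 20 genes on the MAPK and SRF route to the immediate early genes, 5 were higher and 15 lower (median -0.10). The extremes were the ribosomal S6 kinase Rps6ka3 at 62.1 and 83.2 CPM (0.42) and the coactivator Crebbp at 44.6 and 36.4 CPM (-0.29). Map2k3 was at 0.14 and Srf at -0.21. Over all cells Crebbp was the 1 gene of this list past 1.5-fold, at 48.8 and 31.9 CPM (-0.61). Of 13 later and other early factors, 7 were higher and 6 lower (median 0.08). Per1, a clock gene that is also an immediate early gene, was 1.5-fold higher in both readings, at 9.57 and 15.1 CPM over all cells (0.65) and at 8.76 and 16.4 CPM at one composition (0.90). Mcl1 was at 0.30, Batf at -0.20 and Dusp6, an ERK phosphatase, at -0.23. Over all cells Dusp6 (-0.70) and Klf10 (-0.71) were at least 1.5-fold lower.

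The heat shock genes, which also respond to cell stress and handling, went the other way. Of 10 past the floor, 2 were higher and 8 lower at one composition (median -0.24), with Hsph1 at 37 and 23.3 CPM (-0.67) and Hsp90aa1 at 1450 and 1134 CPM (-0.35) the lowest. Hsph1 was the 1 heat shock gene past 1.5-fold. Dnajb1, at 45.9 and 58.3 CPM (0.35), and Dnaja1 (0.02) were the exceptions. Summed over the list, the level was 11330 (WT) and 9026 CPM (KO) in granule-high monocyte-leaning cells and 6439 and 6296 CPM in HSC-like cells. The part of handling in the members' ratios was not tested.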

How the data were processed

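Unfiltered matrices of UMI counts per gene and barcode were made by the authors with Cell Ranger on mm10. The submitters' processing notes give version 6.1.2 and the matrix headers Cell Ranger 4, and the counts were used as deposited. The 2 single-cell libraries of LSK cells were analysed, 1 per genotype, with a median of 19440 (WT) and 24180 (KO) UMIs per cell.

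Cells were barcodes with at least 8000 UMIs and under 10% mitochondrial UMIs. They were placed in groups by summed marker UMIs per 10000 with at least 2 markers of a list detected. CPM are summed UMIs of a library or group, with exact Poisson intervals, and log2 ratios carry exact conditional binomial intervals, or at one composition approximate intervals from Poisson variances. All are 95% intervals and cover counting error only. Differences were counted at 1.5-fold for genes past a mean of 10 CPM, on ratios of CPM plus a pseudocount of 0.1 CPM. Within groups a gene needed a total of 20 UMIs and a mean of 10 CPM over both libraries. With 1 library per group no test was made. Alternatives changed cutoffs, scaling, floors, weights, gates, clusters and doublets.

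Members were named when past 1.5-fold, when the readings differed in sign by over 0.1, or when highest of their role, and the others are given for completeness. From each pathway list the 2 highest and 2 lowest were named, and genes past 1.5-fold were added after their values were seen. Members and lists were chosen with earlier results of these data known. The computation was tested on simulated data. Python 3.11.15, numpy 2.4.6, pandas 2.3.3, scipy 1.17.1, scanpy 1.11.5 and matplotlib 3.10.9 were used.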

Additional observations from a re-analysis of the deposited data

How the results depend on the processing

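Of 135 alternative counts of members, 115 stayed within 1.5 times the reported count and 20 did not, and the cause was not tested except where the setting itself changes how many genes can be called (the floor and the fold). Over all cells, 1 member was higher past a laxer fold limit, below 1.5, in place of 0. The 5 members at least 1.5-fold lower became 3 with cells thinned to 8000 UMIs, 8 with no floor, 2 with a floor of 50 CPM, 2 past 2-fold, 9 past the laxer limit and 3 with the mean of per-cell CPM, and the 23 lower members became 15 with a floor of 50 CPM. At one composition the 3 members at least 1.5-fold higher became 6 with no floor, 0 past 2-fold, 12 past the laxer limit, 1 with gate thresholds halved (a factor of 0.5), 0 over Leiden clusters and, added after seeing the data, 1 with groups divided by UMIs per cell. The 3 at least 1.5-fold lower became 1 when thinned, 0 with a floor of 50 CPM, 0 past 2-fold, 1 with the mean of per-cell CPM, 1 without the basophil/mast, innate lymphoid and antibody-secreting gates and 1 with WT shares. The number of members higher at one composition stayed within 1.5 times of 24, with 17 of 30 over Leiden clusters the nearest to an even split. Of 1110 alternative log2 ratios of single genes, 1 changed sign after having passed 1.5-fold, that of Ccl3 (0.16 without the basophil/mast and other rare gates). No paired analysis was possible because each group was 1 library, and for the same reason no replicate could be left out.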

Other observations

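The 3 cell groups left out of the comparison had under 50 cells in at least 1 library. Erythroid-like cells numbered 21 in WT and 8 in KO. Innate lymphoid-like cells numbered 14 in WT and 180 in KO. In the 180 KO cells Tnfaip3, the A20 gene, was at 74.3 CPM, Zfp36l1 at 298 CPM, Btg1 at 207 CPM, Jund at 1544 CPM and Fos at 884 CPM. The 14 WT cells held Ltb at 202 CPM against 35.1 CPM in the KO cells. Antibody-secreting-like cells numbered 36 in WT and 0 in KO, which allows a share of up to 0.055% of KO cells. They held Gadd45b at 106 CPM, Zfp36l1 at 88.9 CPM and Ier3 at 8.08 CPM.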
